A study of Mus musculus with 12 samples.

Results

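The genes of transforming growth factor beta (TGF-beta) and activin signaling were followed in perihematomal tissue after intracerebral hemorrhage (ICH). They are the 9 genes whose symbol equals Tgfb1, Tgfb2, Tgfb3, Tgfbr1, Tgfbr2, Tgfbi, Inhba, Smad7 or Smad3, of 54833 genes in the deposited table. All 9 were found and all 9 passed the expression filter. RNA-seq had been performed on tissue around the hematoma in the caudate putamen, the dorsal striatum, of male wild-type mice 24 h after surgery. There were 4 groups of 3 samples each. The young sham and young ICH groups were mice of 8 to 10 weeks, and the aged sham and aged ICH groups were mice of 20 to 22 months. ICH was induced with type IV collagenase, an enzyme that breaks down the wall of small vessels, whereas sham mice received saline by injection. Each sample pooled tissue from several mice, and *P* values therefore measure the spread between pools and not between animals.

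TGF-beta ligands are secreted in a latent form that is held in the matrix or on cell surfaces and must be released before it can bind. The free ligand binds the type II receptor Tgfbr2, which activates the type I receptor Tgfbr1. The activated complex phosphorylates Smad3, which enters the nucleus with Smad4 and induces, among others, the inhibitor Smad7. Activin A, a dimer of the subunit encoded by Inhba, signals through its own receptors to the same Smad3 and is captured by follistatin. In the brain, TGF-beta maintains microglia and the vessel wall, and Inhba is known as a gene that neurons induce with activity.

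The 9 genes fell into 3 patterns after ICH. In young mice, Tgfb1, Tgfbr2 and Tgfbi rose and Inhba fell, and in aged mice Tgfb1 and Tgfbi rose. Of these calls, only the young fall of Inhba was kept without any one of the 12 samples. Tgfbr2 in aged mice was called by DESeq2 but not by edgeR, the main test. Tgfb3, Tgfbr1, Smad3 and Smad7 passed the test in neither age. Tgfb2 did not pass either, and it was high in 3 of the 6 ICH samples, which were also the 3 with the highest choroid plexus markers. No member passed the test between aged and young mice.

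To show the regulatory sequence of the genes that changed and of Tgfb2, the RefSeq promoter windows (GRCm38.p6, the build of the deposited counts) are printed 5′ to 3′ on the strand of the gene. Capitals mark the motifs found by a search of both strands, which are the GC box GGGCGG in Tgfb1 and Tgfbi and the SMAD-binding CAGACA in Tgfb2, and a match on the opposite strand reads as the reverse complement. The windows lie at chr7:25686752-25687001 on the plus strand for Tgfb1, chr1:186705990-186706239 on the minus strand for Tgfb2, chr9:116175364-116175613 on the minus strand for Tgfbr2, chr13:56609336-56609522 on the plus strand for Tgfbi and chr13:16011601-16011850 on the plus strand for Inhba. For Tgfbi only the 187 bases outside the annotated gene are shown.
Tgfb1: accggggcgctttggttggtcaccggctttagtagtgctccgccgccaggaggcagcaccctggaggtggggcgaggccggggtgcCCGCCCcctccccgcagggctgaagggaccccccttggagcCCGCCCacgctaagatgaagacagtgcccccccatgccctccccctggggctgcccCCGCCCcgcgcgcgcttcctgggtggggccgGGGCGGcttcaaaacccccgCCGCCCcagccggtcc
Tgfb2: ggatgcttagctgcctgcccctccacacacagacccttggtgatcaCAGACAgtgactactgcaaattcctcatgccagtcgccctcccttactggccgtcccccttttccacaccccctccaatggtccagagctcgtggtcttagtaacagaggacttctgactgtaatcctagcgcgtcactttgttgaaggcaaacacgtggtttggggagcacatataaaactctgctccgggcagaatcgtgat
Tgfbr2: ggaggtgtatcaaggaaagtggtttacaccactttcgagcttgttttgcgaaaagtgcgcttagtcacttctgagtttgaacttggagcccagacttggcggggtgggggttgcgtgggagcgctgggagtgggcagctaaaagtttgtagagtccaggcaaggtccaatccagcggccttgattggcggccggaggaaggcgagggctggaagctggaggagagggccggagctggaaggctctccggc
Tgfbi: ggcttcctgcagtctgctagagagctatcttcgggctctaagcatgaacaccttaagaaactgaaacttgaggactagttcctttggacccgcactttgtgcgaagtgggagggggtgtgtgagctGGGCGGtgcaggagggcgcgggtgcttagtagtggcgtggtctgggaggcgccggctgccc
Inhba: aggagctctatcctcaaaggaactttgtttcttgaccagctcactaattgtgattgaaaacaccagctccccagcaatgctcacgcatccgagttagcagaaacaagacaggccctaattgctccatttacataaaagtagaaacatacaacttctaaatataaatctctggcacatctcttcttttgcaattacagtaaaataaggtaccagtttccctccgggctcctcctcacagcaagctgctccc

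The table held 8 windows for 7 of the members. The GC box was present in 4 of the 8 windows, compared with 32.7% of 32851 promoter windows of the same 250 bases, and the Tgfb1 window held 5 of them. CAGACA was present in 2 of the 8, in Tgfb2 at 204 bases before the start and in the second window of Tgfbr1, compared with 17.1% of all windows. The palindromic SMAD element GTCTAGAC, the AP-1 element TGANTCA and the cyclic AMP element TGACGTCA were in none of the 8, and these letters occur in 0.167%, 6.75% and 1.55% of all windows. The windows of Tgfbr2 and Inhba, printed above, held none of the 5 motifs. A match is a description of the letters and not a site.

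The depth was 28410896 to 37785160 counted reads per sample, and the members had between 191 and 3381 reads in a sample. Markers of striatal neurons such as Drd1 were present in every sample (4.02 to 34.7 FPKM). Their summed level ranged lower in ICH samples (122.1 to 666.4 FPKM) than in sham samples (466.3 to 906.5 FPKM). All 10 were lower after ICH in both ages, with a median log2FC of −0.95 in young and −1.11 in aged mice, although 0 passed the test. Markers of cortical neurons were also present, with a sum over 6 markers of 167.3 to 298.4 FPKM. None of the 6 was higher after ICH in either age (median log2FC −0.53 in young and −0.24 in aged mice). The sum of 8 choroid plexus markers stood apart in 3 ICH samples, with 3215 FPKM in young ICH replicate 3, 1245 in aged ICH replicate 1 and 1590 in aged ICH replicate 2, against 6.75 to 348.4 in the others. Results are therefore also given without these 3 libraries, which leaves aged ICH with 1 sample whose spread is assumed to be that of the other groups. In bulk tissue, fewer cells of a type and less RNA per cell cannot be told apart.

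Levels are compared between genes as FPKM, which is scaled to transcript length and to mapped fragments. In young sham mice the order was Smad3, Tgfbr1, Smad7, Inhba, Tgfb3, Tgfbr2, Tgfbi, Tgfb2 and Tgfb1, with means from 15.5 ± 1.30 FPKM for Smad3 to 1.32 ± 0.206 FPKM for Tgfb1 (SD, n = 3). Only Smad3 lay clear of its neighbour at the upper end and Tgfb2 and Tgfb1 of theirs at the lower end, and the ranges of the 6 genes between overlapped from each to the next. In young ICH mice the order was Smad3, Tgfbi, Tgfbr2, Tgfbr1, Smad7, Tgfb3, Tgfb2, Inhba and Tgfb1. Tgfbi thus moved from the seventh place to the second and Inhba from the fourth to the eighth. In aged ICH mice, Tgfbi and Smad3 were level, at 17.6 ± 2.82 and 17.6 ± 1.34 FPKM, and Tgfb1 was again the lowest at 2.59 ± 0.343 FPKM (SD, n = 3 each).

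**Figure D1:**
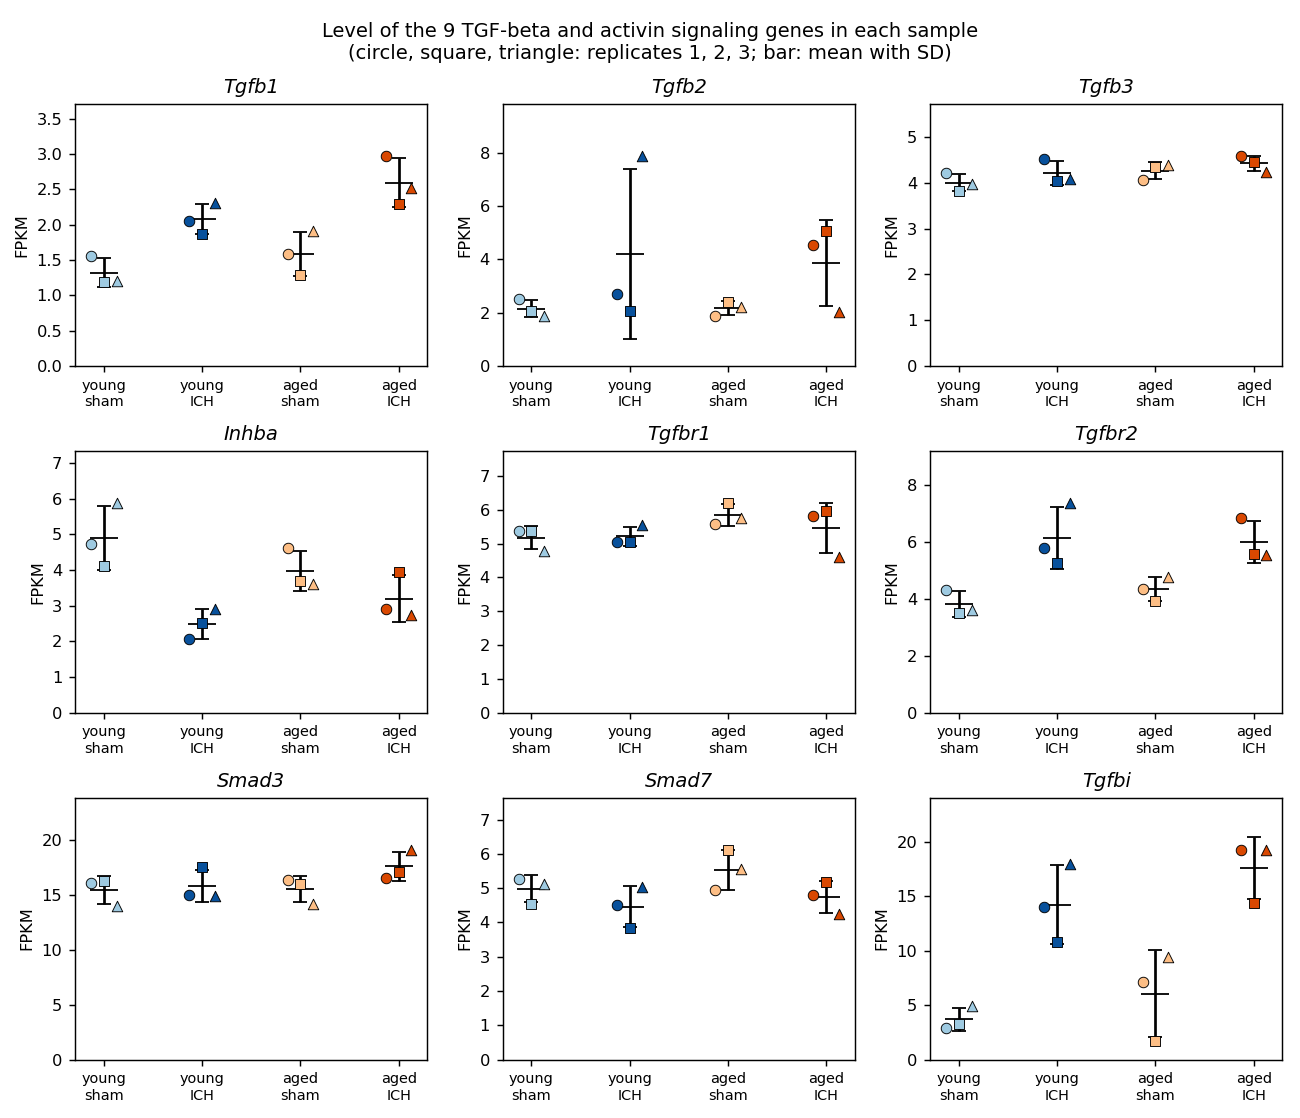
FPKM of each of the 9 genes (vertical axes, each from 0) in the 4 groups, with 1 point per sample, circles, squares and triangles for replicates 1, 2 and 3, and the mean with SD as a bar. Tgfb1, Tgfbr2 and Tgfbi lie higher in every ICH sample than in every sham sample of the same age, Inhba lies lower in every young ICH sample, and Tgfb2 is far above the others in 3 ICH samples.

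To find the response to ICH, each ICH group was compared with the sham group of its age by edgeR's quasi-likelihood test on the counts, and a gene was called at an adjusted *P* under 0.05 over 21495 genes. In young mice 3 of the 9 members rose, against 9.89% of all genes tested, and 1 fell, against 9.23%. In aged mice 2 rose, against 7.00%, and 0 fell, against 6.15%, with 2 lower at an unadjusted *P* under 0.05 (Inhba and Smad7), against 14.3% of all genes, and 0 lower by DESeq2. By the criterion FC > 1.5 or FC < 0.67 and unadjusted *P* under 0.05, 3 members were DEGs in young mice, against 12.2% of all genes, and 2 in aged mice, against 10.1%. Samples of the ICH and sham groups did not overlap for 4 members in young mice (35.0% of all genes) and for 4 in aged mice (35.1% of all genes). The median log2FC of the members was −0.01 in young and 0.11 in aged mice, beside 0.02 and 0.00 over all genes. Without the 3 choroid-rich libraries, 2 members were called in young mice (Tgfbr2 and Inhba), against 9.63% of all genes, and 0 in aged mice, against 1.89%. Counts of the lists without these libraries can be read against the same shares. The aged counts there rest on 1 ICH sample, and a lost call does not show a lost response.

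**Figure D2:**
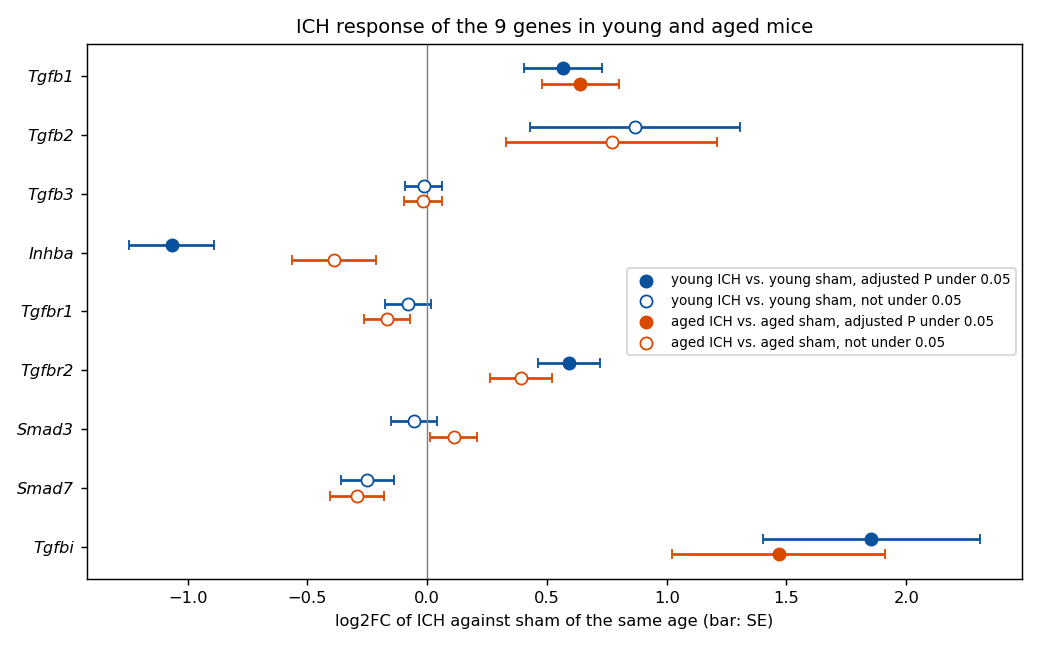
log2FC of ICH against sham (horizontal axis, with SE) for the 9 genes in young mice (blue) and aged mice (orange), where a filled point has an adjusted *P* under 0.05. The points of an age lie on the same side for all genes but Smad3, at −0.05 and 0.11, and the widest gap between the ages is that of Inhba, at −1.07 and −0.39.

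Among the ligands, Tgfb1, the form made mainly by microglia, macrophages and endothelium (ENSMUSG00000002603, chr7:25687002-25705077, plus strand, GRCm38), rose in both ages. Its level was 1.55, 1.19 and 1.20 FPKM in the 3 young sham samples and 2.06, 1.87 and 2.31 FPKM in the young ICH samples. In aged mice it was 1.58, 1.28 and 1.91 FPKM in sham samples and 2.97, 2.30 and 2.52 FPKM in ICH samples. Every ICH sample lay above every sham sample of its age. The log2FC was 0.57 ± 0.16 in young mice (adjusted *P* = 0.0316) and 0.64 ± 0.16 in aged mice (adjusted *P* = 0.0249), with the SE and edgeR's test. The young call was lost without young sham replicate 2 or 3 or young ICH replicate 1 or 3 (adjusted *P* = 0.118, 0.102, 0.0643 and 0.098), and the aged call without replicate 1 or 2 of aged sham or without replicate 1 or 3 of aged ICH (0.0764, 0.0901, 0.114 and 0.0633). Without the 3 choroid-rich libraries the log2FC was 0.50 and 0.60, and neither was called (adjusted *P* = 0.112 and 0.169 by edgeR).

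Tgfb2, which glia and the choroid plexus epithelium make (ENSMUSG00000039239, chr1:186622792-186705989, minus strand), did not pass the test. It measured 2.50, 2.05 and 1.89 FPKM in young sham samples and 2.68, 2.05 and 7.87 FPKM in young ICH samples. The aged groups had 1.87, 2.39 and 2.21 FPKM in sham samples and 4.54, 5.05 and 2.01 FPKM in ICH samples. Young ICH replicate 3 and aged ICH replicates 1 and 2 stood far above the sham samples, young ICH replicate 1 lay just above the highest of them, and the other ICH samples lay within their range. The log2FC was 0.87 ± 0.44 in young mice (adjusted *P* = 0.192) and 0.77 ± 0.44 in aged mice (adjusted *P* = 0.276 by edgeR).

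The 3 samples with high Tgfb2 were those with high choroid plexus markers. Ttr, which encodes transthyretin and is the leading transcript of the choroid plexus epithelium, was at 3100, 1208 and 1544 FPKM in them and at 4.34 to 330.2 FPKM in the other 9. Of the 8 choroid plexus markers 0 passed the test in either age. Over the 12 samples, log2 CPM of Tgfb2 and the mean of the markers had r = 0.915, and r = 0.973 after the group means were removed, as a description over samples that share libraries. Without these 3 libraries the log2FC of Tgfb2 was 0.06 ± 0.16 in young mice and −0.16 ± 0.21 in aged mice, with adjusted *P* = 0.85 and 0.726 by edgeR. Both genes with the pattern most like Tgfb2 over the 12 samples, St6galnac2 (r = 0.989) and Rdh5 (r = 0.982), were also highest in the same libraries. Rdh5, a retinol dehydrogenase, was at 4.13, 2.38 and 2.64 FPKM in them and at 0.691 to 1.29 FPKM elsewhere.

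Tgfb3, which astrocytes and neurons make (ENSMUSG00000021253, chr12:86056745-86079041, minus strand), stayed within 3.83 to 4.59 FPKM over the 12 samples. The log2FC was −0.01 ± 0.08 in young mice and −0.02 ± 0.08 in aged mice, with adjusted *P* = 0.919 and 0.908 by edgeR. It had the smallest SE of the members. Its gene, introns included, shares 5149 bp with the span of Ttll5 on the opposite strand, which had 1041 to 1412 counts. No source used here gives the strand setting of the counting, and overlap of exons was not measured. How far the value of Tgfb3 is uncertain is therefore not known.

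Set side by side, Tgfb3 held most of the summed FPKM of the 3 TGF-beta ligands in sham mice, with 53.8% ± 2.67 in young and 53.3% ± 1.43 in aged mice (SD, n = 3). In ICH mice its share was 42.7% ± 12.2 in young and 41.4% ± 6.10 in aged mice, with the low values in the 3 samples of high Tgfb2. The share of Tgfb1 was 17.6% ± 1.08 and 20.6% ± 3.92 in young sham and young ICH mice, and 19.8% ± 3.36 and 24.2% ± 4.61 in aged sham and aged ICH mice. In young ICH replicate 3 and aged ICH replicate 2, Tgfb2 had the largest share of the ligands, at 55.2% and 42.8%. Tgfb1 reached its largest share, 28.7%, in aged ICH replicate 3. These shares were not tested.

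**Figure D3:**
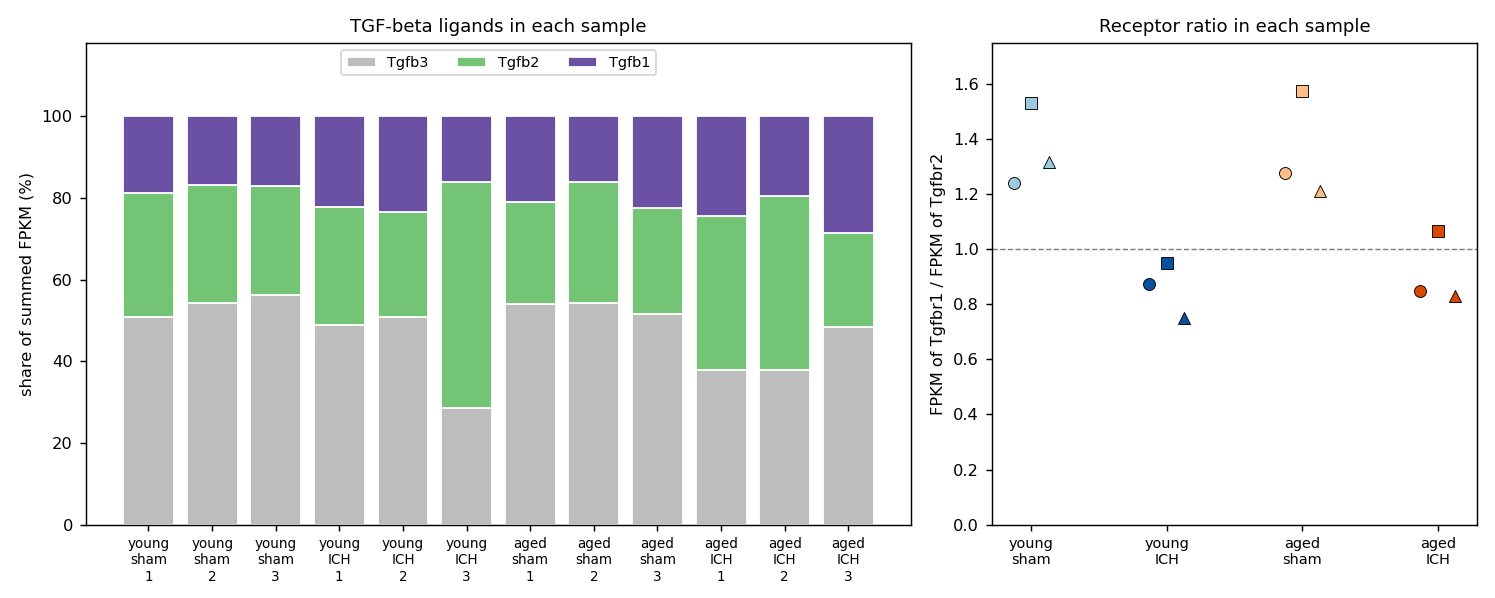
Left, the share (%) of Tgfb1, Tgfb2 and Tgfb3 in their summed FPKM in each of the 12 samples as stacked bars. Right, the ratio of the FPKM of Tgfbr1 to that of Tgfbr2 by group, 1 point per sample with circles, squares and triangles for replicates 1, 2 and 3, where sham samples lie at 1.21 to 1.58 and ICH samples at 0.751 to 1.07 and a dashed line marks a ratio of 1.

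Inhba, the subunit of activin A (ENSMUSG00000041324, chr13:16011851-16031621, plus strand), fell after ICH in young mice. Its level was 4.74, 4.11 and 5.87 FPKM in young sham samples and 2.07, 2.51 and 2.90 FPKM in young ICH samples, with no overlap. In aged mice it was 4.62, 3.70 and 3.60 FPKM in sham samples and 2.90, 3.95 and 2.73 FPKM in ICH samples, and aged ICH replicate 2 lay within the sham range. The log2FC was −1.07 ± 0.18 in young mice, an FC of 0.477 (adjusted *P* = 0.00318), and −0.39 ± 0.18 in aged mice, an FC of 0.764 (adjusted *P* = 0.169 by edgeR). The young call was kept without any one of the 12 samples, with log2FC from −1.18 to −0.92, and without the choroid-rich libraries (log2FC −1.18, adjusted *P* = 0.00847). The response of aged minus that of young mice was 0.68 ± 0.25 on the log2 scale (unadjusted *P* = 0.0185, adjusted *P* = 0.9999 by edgeR), so a difference between the ages does not pass over all genes. Summed striatal neuron markers were 122.1, 666.4 and 275.6 FPKM in aged ICH replicates 1, 2 and 3, and 405.5, 161.6 and 592.5 FPKM in those of young ICH. With the mean log2 CPM of the striatal neuron markers, Inhba had r = 0.612 over the 12 samples and r = 0.366 after the group means were removed. With the cortical neuron markers it had r = 0.518 and r = −0.241. The part of neurons was not tested. The Inhba gene, introns included, shares 11573 bp with the span of the pseudogene B230303A05Rik on the opposite strand, which had 190 to 375 counts. Overlap of exons was not measured, so how far the value of Inhba is uncertain is not known.

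Follistatin, encoded by Fst and the secreted protein that captures activin, was the gene whose level over the 12 samples was most like that of Inhba among 16823 genes (r = 0.95, and r = 0.771 after the group means were removed). Fst measured 0.992, 0.883 and 1.17 FPKM in young sham samples and 0.501, 0.489 and 0.704 FPKM in young ICH samples. Its aged levels were 0.902, 0.787 and 0.750 FPKM in sham samples and 0.572, 0.683 and 0.658 FPKM in ICH samples. The groups overlapped in neither age. Fst fell in young mice by 0.94 on the log2 scale (adjusted *P* = 0.00465), and its log2FC in aged mice was −0.42 (adjusted *P* = 0.131 by edgeR). The response of aged minus young mice was 0.51 ± 0.24 (unadjusted *P* = 0.0583). Fst had only 67 to 172 counts in a sample. The neighbour of Inhba by likeness after Fst was Dcaf1, with r = 0.921.

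**Figure D4:**
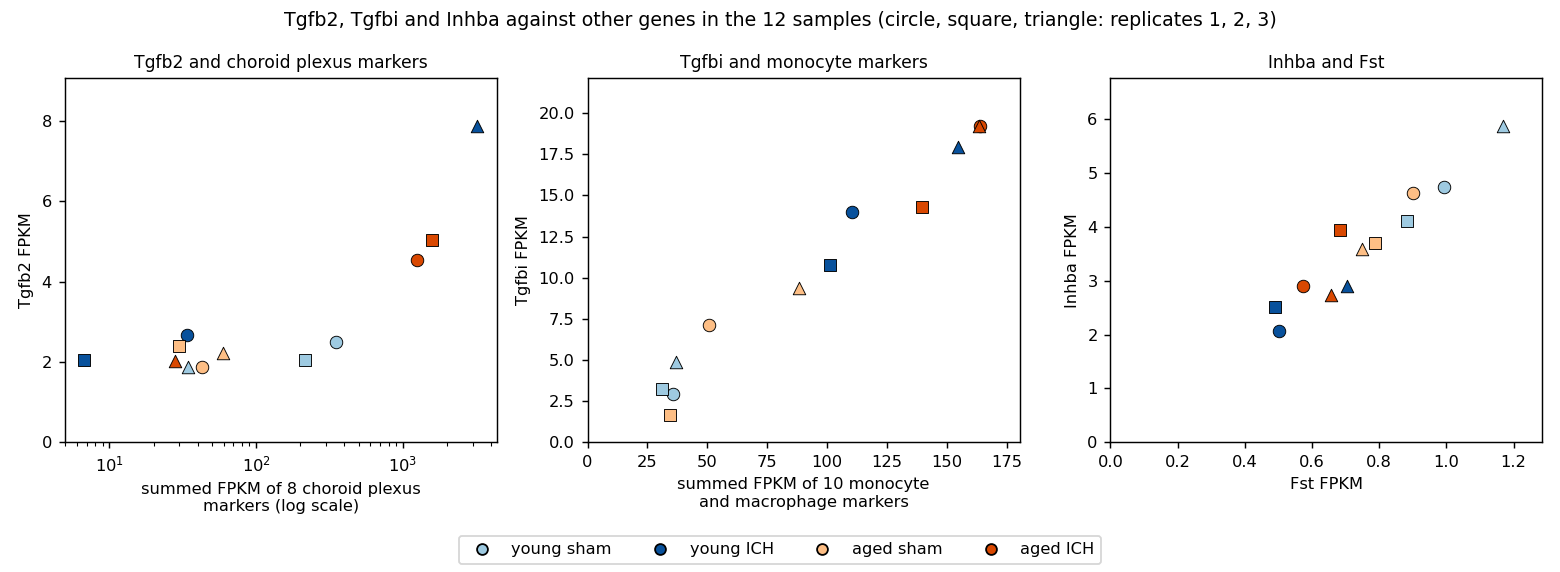
FPKM of Tgfb2, Tgfbi and Inhba in the 12 samples (vertical axes) against the summed FPKM of 8 choroid plexus markers on a log scale, the summed FPKM of 10 monocyte and macrophage markers, and the FPKM of Fst, with groups by color and replicates 1, 2 and 3 as circles, squares and triangles. Tgfb2 is highest in the 3 samples above 1000 FPKM of choroid plexus markers, Tgfbi lies along the monocyte and macrophage markers in sham and ICH samples, and Inhba lies along Fst.

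The type II receptor Tgfbr2, which binds the ligand (ENSMUSG00000032440, chr9:116084293-116175360, minus strand), rose in young mice. It was at 4.34, 3.52 and 3.63 FPKM in young sham samples and 5.79, 5.29 and 7.38 FPKM in young ICH samples. In aged mice it was at 4.36, 3.93 and 4.77 FPKM in sham samples and 6.86, 5.59 and 5.56 FPKM in ICH samples. The groups did not overlap in either age. The log2FC was 0.59 ± 0.13 in young mice (adjusted *P* = 0.00994) and 0.39 ± 0.13 in aged mice (adjusted *P* = 0.0671 by edgeR), where DESeq2 gave an adjusted *P* of 0.0329 and edgeR on the aged groups alone 0.0482. The young call was lost without young sham replicate 2 (adjusted *P* = 0.0506), and the aged response was called without young ICH replicate 3 (adjusted *P* = 0.034). Without the choroid-rich libraries the log2FC was 0.45 (adjusted *P* = 0.0319) and 0.29 (adjusted *P* = 0.266), both by edgeR.

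The type I receptor Tgfbr1, the kinase that phosphorylates Smad3 (ENSMUSG00000007613, chr4:47353222-47414931, plus strand), ranged from 4.61 to 6.20 FPKM over the 12 samples. Its log2FC was −0.08 ± 0.10 in young mice (adjusted *P* = 0.594) and −0.17 ± 0.10 in aged mice (adjusted *P* = 0.274 by edgeR). In the fit without the choroid-rich libraries the log2FC was −0.12 in young and −0.40 in aged mice, the latter from 1 aged ICH sample. With the choroid plexus markers Tgfbr1 had r = 0.323 over the 12 samples and r = 0.732 after the group means were removed. The part of the choroid plexus was not tested. Tgfbr1 exceeded Tgfbr2 in all 6 sham samples, with a ratio of FPKM from 1.21 to 1.58. In ICH samples the ratio was 0.873, 0.952 and 0.751 in young and 0.85, 1.07 and 0.83 in aged mice. Tgfbr2 thus had the higher level in 5 of the 6 ICH samples, aged ICH replicate 2 being the exception. The ratio was not tested.

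Tgfb1 and Tgfbr2 varied together, with r = 0.912 over the 12 samples and r = 0.877 after the group means were removed, the highest of the 36 pairs of members in both. The genes most like Tgfb1 were Lat2 (r = 0.982) and Itgb2 (r = 0.981), the latter a leukocyte integrin subunit, and those most like Tgfbr2 were Slc12a4 and Hspb8 (r = 0.978 each). Itgb2 rose by 0.87 in young and 0.88 in aged mice on the log2 scale (adjusted *P* = 0.0149 and 0.0199 by edgeR). Of 10 endothelial markers 6 rose in young and 4 in aged mice, against 9.89% and 7.00% of all genes, and their summed level went from 101.9 to 132.7 FPKM in young sham samples to 170.3 to 197.6 in young ICH samples, and from 110.5 to 129.7 to 153.4 to 181.5 in aged mice. Of 9 astrocyte markers 5 rose in young and 3 in aged mice. With the choroid-rich libraries left out, aged ICH kept 1 sample, which cannot show whether the aged rise of these markers was kept. After the group means were removed, Tgfb1 and Tgfbr2 had r = 0.782 and 0.79 with the endothelial and r = 0.813 and 0.785 with the astrocyte markers, and Tgfbr2 had r = 0.732 with the choroid plexus markers. The part of these cells in the result was not tested. The 10 homeostatic microglia markers kept a summed level of 120.1 to 147.4 FPKM in young sham and 129 to 153.7 FPKM in young ICH samples, with 0 higher and 2 lower in each age. With them Tgfb1 and Tgfbr2 had r = −0.286 and −0.248 over the 12 samples, and r = 0.426 and 0.6 after the group means were removed. With monocyte and macrophage markers these were r = 0.897 and 0.856, and r = 0.555 and 0.377. The part of these cells was not tested either.

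Smad3, the transcription factor that the receptors activate (ENSMUSG00000032402, chr9:63646767-63757994, minus strand), had the highest mean level of the members in every group, at 14 to 19.1 FPKM over the 12 samples, although Tgfbi was above it in young ICH replicate 3 and in aged ICH replicates 1 and 3. Its log2FC was −0.05 ± 0.10 in young mice (adjusted *P* = 0.734) and 0.11 ± 0.10 in aged mice (adjusted *P* = 0.496 by edgeR). RNA levels do not show the phosphorylation by which Smad3 acts.

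Smad7, the inhibitor that blocks the type I receptor (ENSMUSG00000025880, chr18:75367529-75395935, plus strand), measured 5.28, 4.54 and 5.13 FPKM in young sham samples and 4.52, 3.84 and 5.02 FPKM in young ICH samples. The aged groups had 4.95, 6.11 and 5.55 FPKM in sham samples and 4.79, 5.19 and 4.26 FPKM in ICH samples. On the scale of CPM, which is normalized by TMM, the aged groups did not overlap, at 22.9 to 28.1 CPM in sham and 18.6 to 22.6 CPM in ICH samples. The log2FC was −0.25 ± 0.11 in young mice (unadjusted *P* = 0.0446, adjusted *P* = 0.139) and −0.29 ± 0.11 in aged mice (unadjusted *P* = 0.0219, adjusted *P* = 0.105), so neither passed edgeR's test over all genes. In the fit without the choroid-rich libraries the log2FC of Smad7 was −0.33 in young and −0.44 in aged mice, the latter from 1 aged ICH sample. Over the 12 samples Smad7 had r = −0.005, 0.733 and 0.148 with the cortical neuron, striatal neuron and choroid plexus markers. After the group means were removed these were r = −0.887, 0.579 and 0.655. The part of these cells was not tested. The ratio of Smad3 to Smad7 was 2.56 to 3.59 in sham samples and 2.97 to 4.58 in ICH samples.

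Tgfbi encodes a secreted matrix protein that TGF-beta induces and that monocytes and macrophages express (ENSMUSG00000035493, chr13:56609523-56639562, plus strand). It had the largest response of the members. Its level was 2.93, 3.26 and 4.91 FPKM in young sham samples and 14, 10.8 and 17.9 FPKM in young ICH samples. In aged mice it was 7.12, 1.68 and 9.39 FPKM in sham samples and 19.2, 14.3 and 19.2 FPKM in ICH samples. The groups did not overlap in either age, and aged sham replicate 2 lay below every other sample. The log2FC was 1.86 ± 0.45 in young mice, an FC of 3.62 (adjusted *P* = 0.0162), and 1.47 ± 0.44 in aged mice, an FC of 2.77 (adjusted *P* = 0.0493 by edgeR).

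The young call of Tgfbi was lost without young sham replicate 1 or 2 or young ICH replicate 3 (adjusted *P* = 0.0551, 0.0705 and 0.0513). The aged call, close to the threshold, was lost in 9 of the 12 omissions, with adjusted *P* up to 0.143, and was kept without young ICH replicate 3 and without replicate 2 or 3 of aged sham. The log2FC stayed between 1.67 and 2.11 in young mice and between 1.03 and 1.92 in aged mice over these omissions. Without the choroid-rich libraries it was 1.67 and 1.60 (adjusted *P* = 0.0753 and 0.185 by edgeR).

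Tgfbi moved with the markers of monocytes and macrophages. Their summed level over 10 markers was 31 to 36.9 FPKM in young sham, 101.4 to 154.8 in young ICH, 34.5 to 88.4 in aged sham and 139.8 to 164 in aged ICH samples. Ly6c2, Ccr2 and Chil3 reached at most 1.34, 2.97 and 9.12 FPKM in a sample, so most of the sum came from the other markers, Vim and Fn1 among them. Of the 10 markers 7 rose in young mice and 7 in aged mice, against 9.89% and 7.00% of all genes. Ly6c2, Plac8 and Ms4a7 were not called in either age, and none of the 10 was at 0 throughout a group. In the fit without the choroid-rich libraries 6 rose in young mice and 1 in aged mice. Log2 CPM of Tgfbi and the mean log2 CPM of these markers had r = 0.982 over the 12 samples and r = 0.978 after the group means were removed. Aged sham replicate 2, the lowest sample for Tgfbi, was also the lowest aged sample for the summed markers, at 34.5 FPKM. Neutrophil markers also moved with ICH: of 9 tested, 7 rose in young and 6 in aged mice. Whether their aged rise was kept without the choroid-rich libraries cannot be told from 1 aged ICH sample. The summed level of the neutrophil markers was 3.78 to 5.43 FPKM in young sham, 11.7 to 28.4 in young ICH, 7.20 to 18.6 in aged sham and 31.8 to 50.7 in aged ICH samples. With Tgfbi they had r = 0.774 over the 12 samples and r = 0.222 after the group means were removed, and with Tgfb1 r = 0.859 and r = 0.265. The astrocyte markers had r = 0.884 with Tgfbi over the 12 samples and r = 0.688 after the group means were removed. The part of any of these cell types in the rise of Tgfbi and Tgfb1 was not tested. The most alike genes were Bcl3 (r = 0.993) and Cd44 (r = 0.99), a receptor of hyaluronan on leukocytes and reactive glia, which rose by 2.52 in young and 2.02 in aged mice on the log2 scale (adjusted *P* = 0.00613 and 0.0202 by edgeR).

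The genes most like the remaining members were B630019K06Rik and Tox2 for Tgfb3 (r = 0.876 and 0.834), Plekhh2 and Enpp1 for Tgfbr1 (r = 0.918 and 0.907), Ankub1 and Pls1 for Smad7 (r = 0.958 and 0.932), and Ccdc120 and Abca8b for Smad3 (r = 0.896 and 0.854). With 12 samples and 16823 genes searched, a high r is found for many genes, and these values are a description.

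To compare the ages without ICH and after ICH, aged sham was compared with young sham and aged ICH with young ICH. In aged sham vs. young sham 0 of the 9 members were called by edgeR, against 0.102% of all genes, 0 passed an unadjusted *P* under 0.05, against 12.3%, and 0 were called by DESeq2. The log2FC ranged from −0.34 ± 0.17 for Inhba to 0.67 ± 0.45 for Tgfbi. Tgfbr1 alone did not overlap between the sham groups, against 21.0% of all genes, and was higher in aged mice by 0.13 on the log2 scale (adjusted *P* = 0.609 by edgeR). In aged ICH vs. young ICH 0 were called by edgeR, against 0.0558%, 0 had an unadjusted *P* under 0.05, against 9.54%, and 0 were called by DESeq2. There the log2FC ranged from −0.14 ± 0.43 for Tgfb2 to 0.33 ± 0.18 for Inhba, and Tgfb1 was at 0.30 ± 0.16. For the interaction of age and ICH 0 members were called by either tool, against 0% of all genes by edgeR, and Inhba alone had an unadjusted *P* under 0.05, against 2.82% of all genes.

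The other genes of the pathway were taken as lists, which were chosen with earlier results of these data known. Their calls are a description beside the shares of all genes above, and an excess over a share was not tested. Among genes that hold the ligand latent or release it, 14 were tested. Of these, 7 rose and 0 fell in young mice, and 7 rose and 1 fell in aged mice, with a median log2FC of 0.49 and 0.50. Thbs1, the thrombospondin that activates latent TGF-beta, was at 0.387 to 0.632 FPKM in young sham, 7.35 to 13.7 in young ICH, 0.573 to 2.55 in aged sham and 16.4 to 24.6 in aged ICH samples. It rose by 4.28 ± 0.45 in young and 3.56 ± 0.42 in aged mice on the log2 scale (adjusted *P* = 0.000745 and 0.00289). Adamts1, a metalloprotease, rose by 1.86 and 1.58. Lrrc32 and Nrros, which tether latent TGF-beta on regulatory T cells and platelets and on microglia, rose by 0.73 and 0.74 in young and by 0.99 and 0.62 in aged mice (adjusted *P* = 0.0181, 0.00141, 0.00809 and 0.00505 by edgeR). The gene that fell in aged mice, named after its value was seen, was the integrin subunit Itgav, by 0.24. Without the choroid-rich libraries, 4 of the 14 rose in each age and 0 fell.

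Among activin and related ligands, 6 of 11 had enough counts to be tested, and Inhbc, Inhbe, Mstn, Gdf1 and Gdf3 had at most 14 counts in any sample. Gdf15, a stress-induced cytokine named here because it was the only call, rose in young mice by 2.49 ± 0.73 (adjusted *P* = 0.0348 by edgeR), and 0 were called in aged mice. Inhbb, the subunit of activin B, and Inha, the inhibin subunit, both named after their values were seen, had log2FC of 0.06 and 0.17 in young and 0.22 and 0.24 in aged mice and were not called. Of 6 BMP ligands tested, Bmp3 alone was called and fell in young mice by 1.24 ± 0.37 (adjusted *P* = 0.0369 by edgeR). Gdf15 and Bmp3 were not called without the choroid-rich libraries, where 0 of either list passed.

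Of 13 other receptors and co-receptors, 1 rose and 3 fell in young mice and 0 rose and 2 fell in aged mice, with median log2FC of −0.10 and −0.01. Acvr1c, an activin type I receptor, was at 5.37 to 5.76 FPKM in young sham and 2.53 to 3.34 in young ICH samples, and at 4.35 to 6.06 and 2.13 to 3.89 FPKM in aged mice. It fell by 0.97 ± 0.20 in young and 0.94 ± 0.20 in aged mice (adjusted *P* = 0.00768 and 0.0139). Bmpr2, the BMP type II receptor, fell by 0.36 and 0.27. The others called in young mice, named after their values were seen, were the activin type II receptor Acvr2b, which fell by 0.42, and the endothelial co-receptor endoglin, Eng, which rose by 0.71 ± 0.12 (adjusted *P* = 0.0029 by edgeR). Of these receptors 1 rose and 2 fell in young mice and 0 rose and 1 fell in aged mice once the choroid-rich libraries were left out.

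Among 11 extracellular and receptor inhibitors, 3 rose and 1 fell in young mice and 2 rose and 0 fell in aged mice. Dcn, encoding decorin, which binds TGF-beta in the matrix and marks fibroblasts, rose by 1.49 ± 0.19 in young and 0.84 ± 0.18 in aged mice (adjusted *P* = 0.00138 and 0.0143 by edgeR). Its response in aged minus young mice was −0.65 ± 0.26 (unadjusted *P* = 0.0282, adjusted *P* = 0.9999). The inhibitor that fell was Fst, described with Inhba. When the choroid-rich libraries were left out, the aged call of Dcn was lost, and 1 aged ICH sample cannot show whether its rise was kept.

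Among 21 SMADs and their nuclear or ubiquitin regulators, 2 rose and 7 fell in young mice and 2 rose and 4 fell in aged mice, with median log2FC of −0.12 and −0.17. Tgif1, a corepressor of SMADs, rose by 1.72 ± 0.27 and 1.34 ± 0.26, and Smad1, of the BMP branch, by 0.36 and 0.23. Skil, which encodes the corepressor SnoN, fell by 0.42 and 0.43, Zfyve9, the anchor that presents SMADs to the receptor, by 0.41 and 0.34, and Ppm1a, a phosphatase of SMADs, by 0.40 and 0.34. All of these had adjusted *P* from 0.00233 to 0.0494 by edgeR. Without the choroid-rich libraries, 2 rose and 6 fell in young mice and 1 rose and 0 fell in aged mice.

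Of the genes listed as responsive to TGF-beta, 25 were tested. Of these, 11 rose and 2 fell in young mice, and 10 rose and 1 fell in aged mice, with median log2FC of 0.58 and 0.53. Timp1, an inhibitor of metalloproteases, was at 7.48 to 10.4 FPKM in young sham, 31.3 to 76.7 in young ICH, 5.45 to 14.1 in aged sham and 42 to 60.1 in aged ICH samples. It rose by 2.44 ± 0.35 in young and 2.40 ± 0.35 in aged mice (adjusted *P* = 0.00187 and 0.00441 by edgeR). The matrix protein gene Tnc rose by 2.32 and 2.30. Col1a1, Col1a2, Acta2 and Tagln, named after their values were seen, were called in neither age. Their log2FC was 0.22, 0.90, 0.54 and 0.47 in young and −0.34, 0.36, −0.07 and 0.94 in aged mice. Skil, itself a TGF-beta target, fell as given above, and Ctgf, the other gene that fell in young mice and named after its value was seen, fell by 0.50 ± 0.10 (adjusted *P* = 0.00533 by edgeR). Fn1 is also among the monocyte and macrophage markers, and Thbs1 and Ltbp2 are also in the list of latency and activation. No gene of these lists was called at an adjusted *P* under 0.05 between the ages or in the interaction, where edgeR called 0.102%, 0.0558% and 0% of all genes. By the FC criterion, 3 targets, 2 latency genes and 1 SMAD regulator were higher and 1 BMP ligand lower in aged sham vs. young sham (3.72% of all genes). In aged ICH vs. young ICH, 2 targets and 1 latency gene were higher, and 4 targets and 1 BMP ligand lower (3.52%). In the interaction 1 inhibitor, Dcn, was lower (1.56%). Without the choroid-rich libraries, 8 targets rose and 3 fell in young mice and 6 rose and 0 fell in aged mice.

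**Figure D5:**
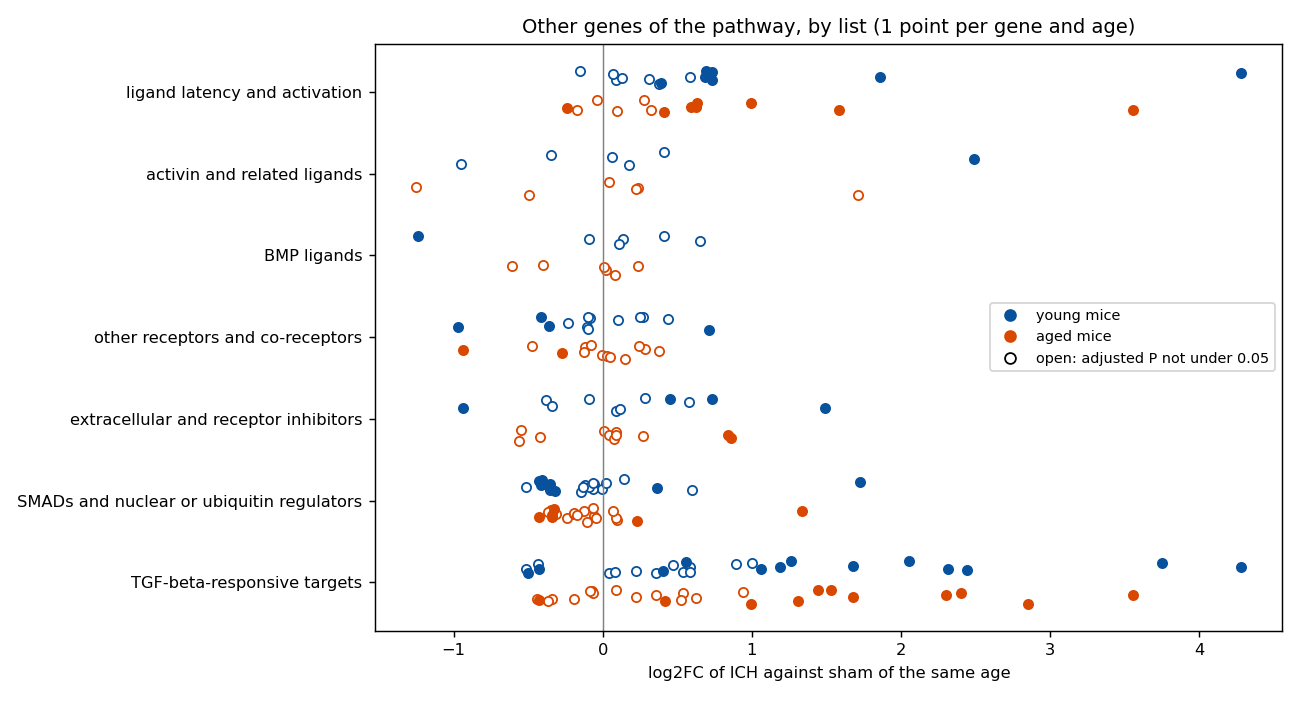
log2FC of ICH against sham of the same age (horizontal axis) for the other genes of the pathway in 7 lists, with 1 point per gene, blue for young and orange for aged mice, filled where the adjusted *P* is under 0.05. The genes of latency and activation and the TGF-beta-responsive targets extend to the right, up to Thbs1 at 4.28 and 3.56, while the receptors and SMAD regulators lie around 0 with most of their calls to the left.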

How the data were processed

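Total RNA of 12 samples, 3 in each of 4 groups set by the labels, had been sequenced. The authors aligned reads to GRCm38.p6 with HISAT2 and counted them with featureCounts (Subread), per the labels and methods. They deposited for each gene the raw count and the FPKM, which is scaled to transcript length and mapped fragments. Strand setting and treatment of multimapping reads are not given in the sources used here. All 12 columns of each unit were assigned, with 0 left over, and no batch is labelled. The members and lists were chosen with earlier results of these data known. Named are all members, list genes called in both ICH comparisons (up to 4 highest and 3 lowest), and the 2 genes most alike each member by Pearson r of log2 CPM. Other names are marked as chosen after their values were seen. A gene that met this rule is not reported here.

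After TMM normalization, the quasi-likelihood F test of edgeR 4.0.16 was run on the counts in R 4.3.3 (limma 3.58.1), with 12 samples in one fit of 4 groups and 21495 genes that passed filterByExpr (minimum count 10). *P* values were adjusted by Benjamini-Hochberg over these genes at 0.05. Alternatives were DESeq2 1.42.0, RLE scaling, no filter, the FC criterion, the 2 groups alone, each sample omitted, a replicate block and, chosen after seeing the data, omission of 3 libraries with summed choroid plexus markers above 1000 FPKM. The script was tested on simulated data. Replicate numbers were not used as pairs, as described with the alternatives. Log2 CPM used a prior count of 2. Every r with a marker list used the unweighted mean log2 CPM of its tested genes and not their summed FPKM. Positions come from GENCODE annotation of GRCm38 and promoters from RefSeq, searched over 250 bases before the start. At a depth of 28410896 to 37785160 reads, the lowest member count was 191.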

Additional observations from a re-analysis of the deposited data

Results flagged for a closer look

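The response of Inhba to ICH differed between the ages by 0.68 ± 0.25 on the log2 scale, as aged minus young mice (interaction in edgeR's model, unadjusted *P* = 0.0185, adjusted *P* = 0.9999 over 21495 genes). It was singled out because the difference itself was tested and had an unadjusted *P* under 0.05, as had 2.82% of all genes, and it does not pass the adjustment. All 3 young ICH samples lay below all 3 young sham samples, whereas in aged mice 1 of the 3 ICH samples lay within the sham range. That sample, aged ICH replicate 2, had the highest sum of striatal neuron markers of its group, at 666.4 FPKM, and was 1 of the 3 choroid-rich libraries. In young ICH replicates 1, 2 and 3 these sums were 405.5, 161.6 and 592.5 FPKM, beside Inhba at 2.07, 2.51 and 2.90 FPKM. The part of neurons was not tested. The difference was 0.50 without aged ICH replicate 2 and 0.81 without aged sham replicate 1, the lowest and highest of the 12 omissions, and 0.58 (unadjusted *P* = 0.0635) without the 3 choroid-rich libraries. Groups held 3 samples, too few to single out one sample by its distance from the others.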

How the results depend on the processing

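Among log2FC of the members and alternatives other than the omission of single libraries, 290 kept their direction and side of the threshold, 7 lost a call, 3 gained one and 6 changed sign. Under DESeq2, 266, 189 and 1 genes were called between the sham ages, between the ICH ages and in the interaction, where edgeR called 22, 12 and 0, and without a filter on low counts 77 and 61 in the age comparisons. Under RLE scaling 1 member was called in aged mice (Tgfb1), since Tgfbi had an adjusted *P* of 0.0503, and the interaction of Tgfb3 changed sign (0.0012). By the FC criterion 2612 genes were called in young ICH vs. young sham, 799 and 756 in the age comparisons and 336 in the interaction, where 1 member (Inhba) passed. Tgfb1 in young mice had an FC under 1.5. With the 2 groups alone, Tgfbi in aged mice had an adjusted *P* of 0.0967. With CPM in place of FPKM, the ligand shares in young sham mice were 20.3%, 38% and 41.7% for Tgfb1, Tgfb2 and Tgfb3.

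Without the 3 choroid-rich libraries, an alternative chosen after seeing the data, 2199 genes were called for ICH in young mice, 431 for ICH in aged mice and 2 between the ICH ages, with 2, 0 and 0 members. Signs changed for Tgfb3 in young mice (0.018), Tgfb2 in aged mice (-0.16) and, in aged ICH vs. young ICH, Tgfb3 (-0.039), Tgfbr1 (-0.16) and Smad7 (-0.0025). The cause was not tested.

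Replicate numbers did not pair the samples: same-numbered samples had correlated deviations above 0.1 in 5 of 18 pairs (r from -0.45 to 0.23), and 9 of 36 matches were best with their own number. With the replicate block 3502, 2464, 12, 8 and 0 genes were called in young ICH, aged ICH, aged vs. young sham, aged vs. young ICH and the interaction, with 4, 2, 0, 0 and 0 members, so no count of members changed.

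With each library omitted in turn, 1858 to 4225 genes were called for ICH in young mice, the fewest on omitting young sham replicate 2 and the most on omitting young ICH replicate 2. For ICH in aged mice 679 to 3327 genes were called, the fewest on omitting aged ICH replicate 1 and the most on omitting young ICH replicate 3. Between the sham ages 6 to 28 were called, the fewest on omitting young sham replicate 2, and between the ICH ages 4 to 19, the fewest on omitting young ICH replicate 1. Members called ranged from 1 to 4 in young and 0 to 3 in aged mice. Signs changed in some omissions for the following values, none of which was called. The log2FC of Tgfb3 ranged from -0.071 to 0.023 in young and -0.045 to 0.0093 in aged mice. In aged sham vs. young sham, Tgfb2 ranged from -0.13 to 0.087 and Smad3 from -0.11 to 0.034. In aged ICH vs. young ICH, Tgfb2 ranged from -0.46 to 0.67, Tgfbr1 from -0.018 to 0.15, Tgfbr2 from -0.17 to 0.080 and Smad7 from -0.022 to 0.15. In the interaction, Tgfb1 ranged from -0.066 to 0.21, Tgfb2 from -0.42 to 0.71, Tgfb3 from -0.041 to 0.053, Tgfbr1 from -0.15 to 0.021, Tgfbi from -0.83 to 0.061 and Smad7 from -0.13 to 0.037. An adjusted *P* above 0.05 does not show that a gene did not change.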
